A study of Mus musculus with 6 samples.

Results

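Endothelial cells are held together by junctions, and 10 genes that encode proteins of these cell borders were followed in mouse fetal liver on microarrays. They are Cdh5, Pecam1, Cldn5, Esam, Jam2, Jam3, F11r, Icam2, Tjp1 and Ocln. They were taken by gene symbol, all 10 had a feature, and each had 1 feature among the 23279 genes tested. Livers were dissected at embryonic day 11.5, and each of the 6 arrays holds total RNA of whole liver. The 3 arrays of the first group are labelled as Gata4 knockout under Stab2-Cre, with Gata4fl/fl as the genotype of the extracted livers. The 3 control arrays are labelled heterozygous for Gata4, also with Stab2Cre in the label. Both groups come from crosses of Stab2-Cretg/wt;Gata4fl/wt with Gata4fl/fl mice, and the floxed allele is that of the line B6;129-Gata4tm1.1Sad/J. Stab2 encodes a scavenger receptor of the cells that line liver sinusoids, so its promoter aims recombination at the lining of liver capillaries, and mesenchymal and other Gata4-expressing cells of the organ are not the aim of the deletion. The replicates are called biological, and how many embryos an array holds is not stated in the sources used here.

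In adherens junctions, VE-cadherin (Cdh5) binds its like on the next endothelial cell and is anchored to actin by catenins. Tight junctions seal the cleft through claudins and occludin, which bind the scaffold ZO-1 (Tjp1), while immunoglobulin-type proteins such as the JAMs, ESAM, PECAM-1 and ICAM-2 sit at the same borders and take part in leukocyte passage. The sinusoids of the mature liver have an open, fenestrated lining, whereas continuous capillaries elsewhere in the body have tighter junctions. Several of these proteins are not particular to endothelium: ZO-1, occludin and JAM-A (F11r) are also made by epithelia, and JAM-A, JAM-C, ESAM, PECAM-1 and ICAM-2 by platelets or leukocytes.

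Gata4 itself read 10.38, 10.26 and 10.64 in livers labelled knockout and 9.90, 9.96 and 9.87 in heterozygous livers (log2 values), so the targeted gene was higher, not lower, under the knockout label (limma adjusted p = 0.0409). Whole liver holds other Gata4-expressing cells, and the position of the probes relative to the deleted part is not stated, so this does not check the labels, and each direction below rests on them. Stab2 averaged 6.82 ± 0.44 in livers labelled knockout and 8.11 ± 0.11 in heterozygous livers (SD, n = 3 each). The liver markers Alb and Afp differed by −0.05 and 0.07 (log2, limma adjusted p = 0.847 and 0.743). Both were among the brightest genes, and the sorted values were identical in all arrays, so Alb and Afp had little room to differ. Their small differences therefore do not show that the content of liver cells was equal. By Xist and 3 Y-linked genes, the 3 arrays labelled knockout and heterozygous replicate 2 were female and heterozygous replicates 1 and 3 were male, so sex was not balanced, and for each of the 10 junction genes the difference from heterozygous replicate 2 alone is given as well. Heart muscle markers were uneven between arrays within both groups, with Actc1 between 7.33 and 10.92 in livers labelled knockout and between 8.26 and 11.28 in heterozygous livers.

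Of the 10 junction genes, 4 rose in livers labelled knockout: Tjp1 1.71-fold, Pecam1 1.55-fold, Jam3 1.49-fold and Cdh5 1.45-fold. The other 6, Ocln, Cldn5, Jam2, Esam, Icam2 and F11r, did not pass the test, which was limma over all 23279 genes with a Benjamini-Hochberg adjusted p under 0.05. None fell, and at an unadjusted p under 0.05 the counts were 5 higher and 0 lower. Over all genes tested, 3.59% were called higher and 2.77% lower, and in the brighter 50% of the genes, which holds 9 of the 10, 6.36% were called higher. The median log2 fold change was 0.43 over the 10 genes and −0.01 over all genes, and 9 of the 10 values were positive. The values of these 4 genes in the arrays labelled knockout were all above the heterozygous ones, which held for 13.0% of all genes and for 19.2% of the brighter 50%. The count of 4 was 0 without labelled knockout replicate 3 or without heterozygous replicate 3, 1 without heterozygous replicate 2 and 2 without heterozygous replicate 1, and it was 0 with a sex term. Over all genes the calls were likewise fewer, with 25 higher and 16 lower without heterozygous replicate 3 and 3 higher and 0 lower with a sex term. RNA of a whole organ does not separate a change in the number of endothelial cells from a change in RNA per cell.

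**Figure D1:**
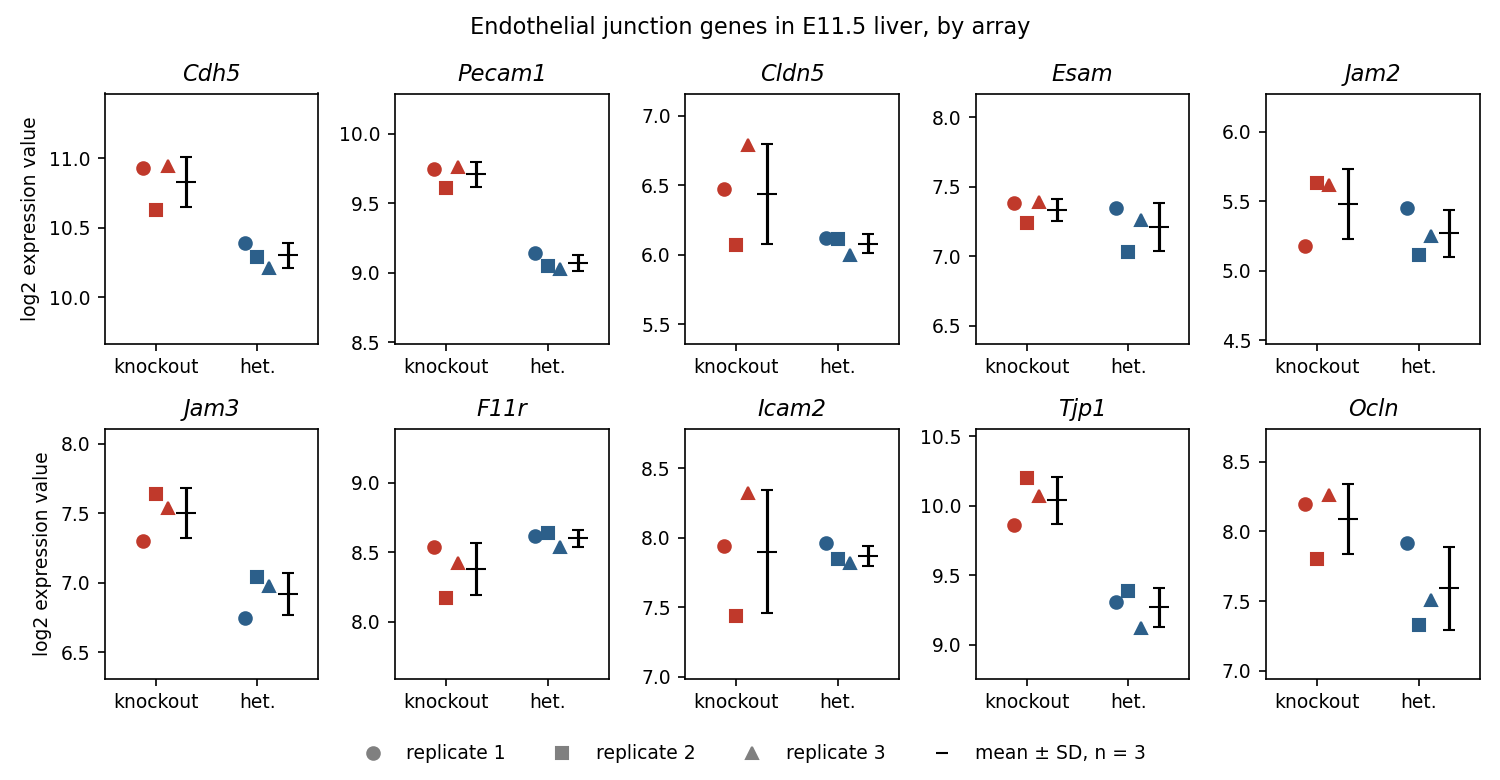
Log2 expression value (vertical axis, the same span in each panel) of each of the 10 genes in the 3 arrays labelled knockout and the 3 heterozygous arrays. Symbols are replicates and bars are mean ± SD. For Cdh5, Pecam1, Jam3 and Tjp1 all arrays labelled knockout lie above all heterozygous arrays, and in the other 6 panels the groups overlap.

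Cdh5 encodes VE-cadherin, the adhesive core of endothelial adherens junctions. Its log2 value was 10.93, 10.63 and 10.94 in livers labelled knockout (replicates 1, 2 and 3, as in all such lists here), against 10.39, 10.29 and 10.21 in heterozygous livers. The lowest array labelled knockout, replicate 2, stood 0.23 above the highest heterozygous array. The log2 fold change was 0.53 (SE 0.12, limma adjusted p = 0.0374), and 0.54 against heterozygous replicate 2 alone. The call held without labelled knockout replicate 2 (adjusted p = 0.0248) but was lost without replicate 1 or 3 of that group (0.0775 and 0.113), without heterozygous replicates 1, 2 or 3 (0.0728, 0.106 and 0.138) and with a sex term (0.262), while the fold change stayed between 0.48 and 0.64.

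Pecam1 encodes PECAM-1 (CD31), which binds itself across endothelial borders and is also made by platelets and leukocytes. It read 9.75, 9.61 and 9.76 in livers labelled knockout and 9.14, 9.05 and 9.03 in heterozygous livers. All 6 values lay close to their group mean, and the gap between the groups was 0.46. The rise was 0.63 on the log2 scale (SE 0.09, limma adjusted p = 0.0141), and 0.66 against heterozygous replicate 2. Without labelled knockout replicate 3 or heterozygous replicates 2 or 3 the adjusted p was 0.0533, 0.0507 and 0.0691, and with a sex term 0.169. Of the markers of blood cells that share Pecam1, 4 of 10 megakaryocyte and platelet genes and 6 of 7 leukocyte genes fell, and the part of these cells in the Pecam1 value was not tested.

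Icam2, the third border protein of this kind, encodes ICAM-2, a ligand of leukocyte integrins found on resting endothelium. It read 7.94, 7.44 and 8.32 in livers labelled knockout and 7.96, 7.85 and 7.82 in heterozygous livers. The heterozygous arrays were within 0.14 of each other, while those labelled knockout spread over 0.88 on both sides of them. The difference was 0.03 with a 95% interval of −0.43 to 0.49 (limma adjusted p = 0.963), so a rise as large as that of Pecam1 lay outside the interval and smaller changes either way lay inside. It was 0.05 against heterozygous replicate 2. Its sign turned without labelled knockout replicate 3 (−0.18), and the value was 0 within rounding without heterozygous replicate 3 and 0.26 without labelled knockout replicate 2.

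Tjp1 encodes ZO-1, the scaffold that ties tight junction proteins to actin in endothelia and epithelia, and also sits at cadherin junctions of other cells. It read 9.86, 10.20 and 10.07 in livers labelled knockout and 9.31, 9.39 and 9.12 in heterozygous livers. Its lowest array labelled knockout was 0.47 above the highest heterozygous one. Its log2 fold change of 0.77 was the largest of the 10 (SE 0.12, limma adjusted p = 0.0170), and it was 0.65 against heterozygous replicate 2. Tjp1 no longer passed without replicate 3 of the group labelled knockout (adjusted p = 0.0636), without heterozygous replicate 3 (0.0735) and with a sex term (0.209).

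Claudin-5, the product of Cldn5, is the barrier claudin of continuous endothelium, best known from brain vessels. It read 6.47, 6.07 and 6.79 in livers labelled knockout and 6.12, 6.11 and 6.0 in heterozygous livers. Replicates 1 and 3 labelled knockout were above every heterozygous array, and replicate 2 lay within their range. The difference of 0.37 did not pass (95% interval −0.03 to 0.76, limma adjusted p = 0.256), nor did it without labelled knockout replicate 2 (0.56, adjusted p = 0.0538) or replicate 3 (0.19, adjusted p = 0.526). Against heterozygous replicate 2 it was 0.33. Ocln encodes occludin, a membrane protein of tight junction strands in endothelia and epithelia, and read 8.20, 7.80 and 8.26 in livers labelled knockout and 7.92, 7.33 and 7.51 in heterozygous livers. Only labelled knockout replicate 2 and heterozygous replicate 1 overlapped. The difference of 0.50 had a 95% interval above 0 (0.09 to 0.91) and an unadjusted p of 0.0233, and did not pass after adjustment (limma adjusted p = 0.145). It was 0.75 against heterozygous replicate 2.

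The 4 genes of the JAM and ESAM group encode immunoglobulin-type proteins of tight junctions, and they did not move alike. Jam3 encodes JAM-C, a partner of JAM-B that is also made by platelets, smooth muscle and other mesenchymal cells. It read 7.30, 7.64 and 7.54 in livers labelled knockout and 6.75, 7.04 and 6.98 in heterozygous livers, with a gap of 0.26 between the groups. It rose by 0.57 (SE 0.12, limma adjusted p = 0.0381), and by 0.46 against heterozygous replicate 2. The call held without labelled knockout replicate 1 (adjusted p = 0.0296) and was lost without replicates 2 or 3 of that group (0.0782 and 0.112), without heterozygous replicates 1, 2 or 3 (0.104, 0.0785 and 0.117) and with a sex term (0.327).

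Jam2 encodes JAM-B, which is found mainly on endothelium and binds JAM-C. It read 5.18, 5.63 and 5.62 in livers labelled knockout and 5.45, 5.11 and 5.25 in heterozygous livers. Labelled knockout replicate 1 lay among the heterozygous arrays, and the difference of 0.21 did not pass (95% interval −0.13 to 0.55, limma adjusted p = 0.482). It was 0.35 without that array, 0.13 without labelled knockout replicate 2 or heterozygous replicate 2, 0.14 without labelled knockout replicate 3, and 0.37 against heterozygous replicate 2. Esam, whose product is shared by endothelium and platelets, read 7.38, 7.24 and 7.39 in livers labelled knockout and 7.35, 7.03 and 7.26 in heterozygous livers. The groups overlapped and the difference was 0.12 (95% interval −0.14 to 0.38, adjusted p = 0.607). It was 0.03 without heterozygous replicate 2, 0.19 without heterozygous replicate 1 and 0.31 against heterozygous replicate 2. F11r encodes JAM-A, made by endothelia, epithelia, platelets and leukocytes, and was the only one of the 10 with a negative value. It read 8.54, 8.17 and 8.42 in livers labelled knockout and 8.62, 8.64 and 8.54 in heterozygous livers. Labelled knockout replicate 1 met the lowest heterozygous array, and the difference of −0.22 did not pass (95% interval −0.48 to 0.04, limma adjusted p = 0.313). It was −0.12 without labelled knockout replicate 2 and −0.26 against heterozygous replicate 2.

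**Figure D2:**
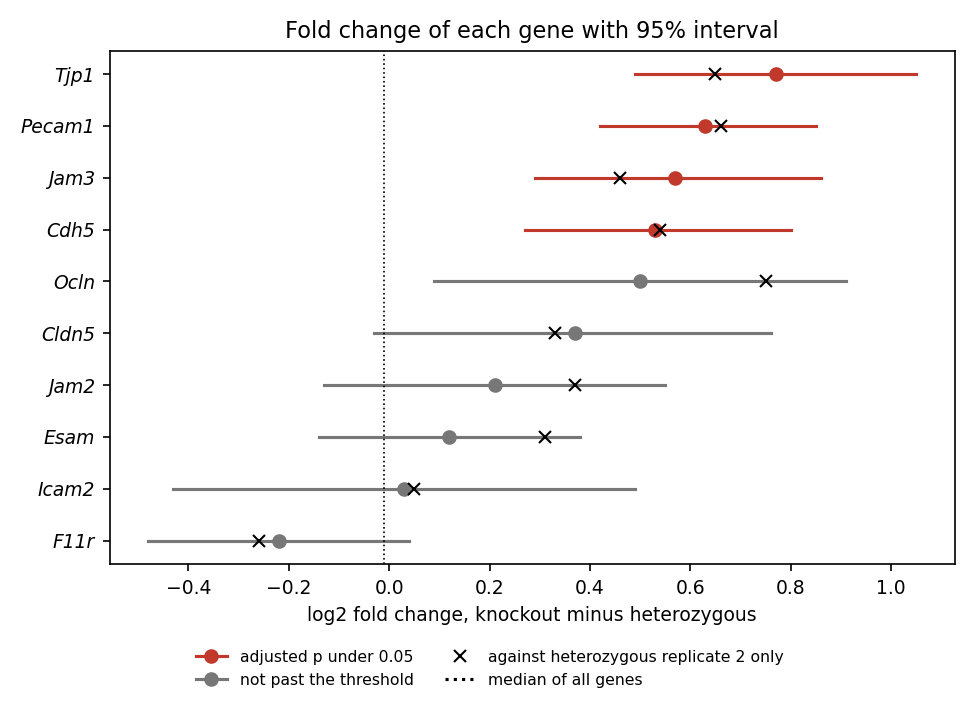
Log2 fold change (horizontal axis, arrays labelled knockout minus heterozygous arrays) of each gene with its 95% interval from limma, and the difference from heterozygous replicate 2 alone as a cross. Red marks the 4 genes with an adjusted p under 0.05, Tjp1, Pecam1, Jam3 and Cdh5, and the dotted line is the median of all genes (−0.01).

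RefSeq promoter windows of GRCm38.p6, from 250 bases before to 50 after the annotated start, were at hand for Tjp1, F11r, Cldn5 and Ocln. Windows of the other 6 genes were not used here. Those of the gene with the largest rise, of the gene with a negative value and of the endothelial claudin are printed to show what lies at their start. Capitals mark GATA, the core bound by GATA factors, and GGAA, the core bound by ETS factors of endothelium, on either strand (TATC and TTCC on the printed strand).
Tjp1 (chr7:65371195-65371494, minus strand): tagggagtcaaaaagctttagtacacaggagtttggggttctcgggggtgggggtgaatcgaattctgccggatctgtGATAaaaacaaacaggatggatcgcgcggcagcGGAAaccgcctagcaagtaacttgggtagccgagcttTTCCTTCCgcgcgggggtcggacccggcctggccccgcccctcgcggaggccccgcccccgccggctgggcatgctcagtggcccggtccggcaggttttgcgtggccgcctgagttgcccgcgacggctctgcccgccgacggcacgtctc
F11r (chr1:171437311-171437610, plus strand): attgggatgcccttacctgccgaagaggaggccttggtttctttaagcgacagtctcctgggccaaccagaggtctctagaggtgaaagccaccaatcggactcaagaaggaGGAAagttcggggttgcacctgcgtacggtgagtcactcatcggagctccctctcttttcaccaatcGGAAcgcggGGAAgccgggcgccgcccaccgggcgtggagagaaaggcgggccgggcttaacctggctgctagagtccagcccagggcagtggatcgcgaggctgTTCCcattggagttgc
Cldn5 (chr16:18776597-18776896, plus strand): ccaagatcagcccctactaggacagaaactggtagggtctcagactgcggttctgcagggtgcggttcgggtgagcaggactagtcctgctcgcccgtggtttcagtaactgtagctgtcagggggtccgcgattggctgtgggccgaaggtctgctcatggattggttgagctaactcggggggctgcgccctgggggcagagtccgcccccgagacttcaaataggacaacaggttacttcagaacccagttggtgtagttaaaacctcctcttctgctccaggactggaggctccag

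The Tjp1 window holds 1 GATA match, 172 bases before the start, and 3 GGAA matches. F11r has 0 GATA and 4 GGAA matches, and Cldn5 has 0 of both. Occludin has 2 windows (chr13:100552669-100552968 and chr13:100552449-100552748, minus strand), and the first of these holds 1 GATA match. Of all 32851 windows of this length in the table, 57.9% hold GATA and 96.0% hold GGAA, so either match is common, and a match says only that these letters are present. The GC content was 65.3% for Tjp1, 60.3% for F11r and 58.3% for Cldn5, against a median of 52.7% over all windows.

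The 10 genes differed in which of the arrays labelled knockout was highest. Replicate 2 was the lowest of the 3 for 7 genes, Cdh5, Pecam1, Cldn5, Ocln, Icam2, Esam and F11r. It was the highest for Jam2, Jam3 and Tjp1, where Jam2 was within 0.01 of replicate 3. Over all genes replicate 2 was lowest for 35.9% and highest for 37.6%. The largest gaps between replicate 2 and the mean of replicates 1 and 3 were −0.69 for Icam2, −0.57 for Cldn5 and −0.43 for Ocln, against 0.24 for Tjp1, 0.23 for Jam2 and 0.22 for Jam3. Over the 6 arrays Cdh5 and Pecam1 had a Pearson r of 0.97 and Jam3 and Tjp1 one of 0.94, while F11r ran against Jam3 (r = −0.84) and Tjp1 (−0.78). These 6 arrays share the same pair of groups, so the correlations describe that contrast as well as the arrays. This split of the genes was seen in the values and was not tested.

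**Figure D3:**
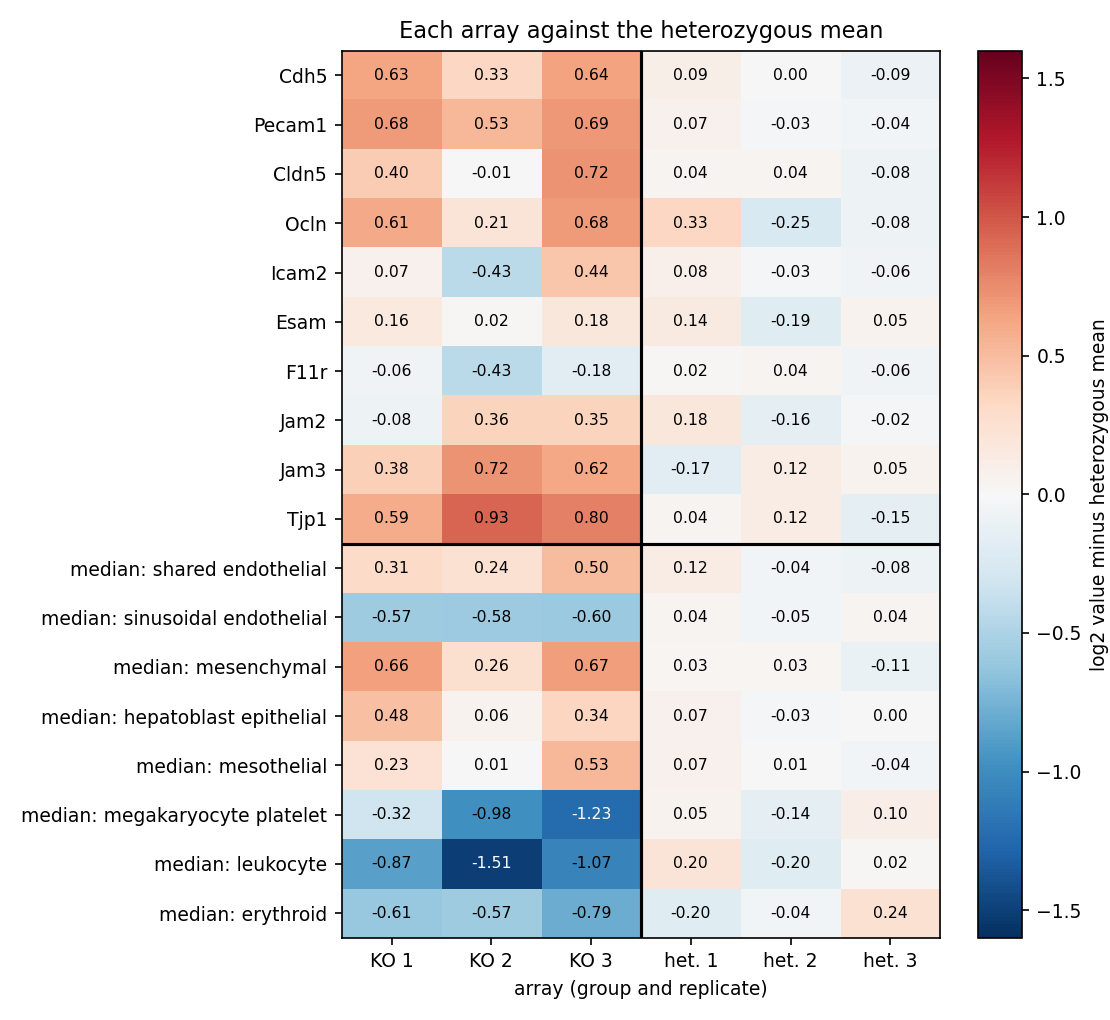
Log2 value minus the mean of the heterozygous arrays (colour and printed number) for each gene (upper rows) and as the median of each cell type list (lower rows), with arrays labelled knockout (KO) on the left and heterozygous arrays (het.) on the right. Cldn5 and Icam2 are above the heterozygous mean in KO 3 and at or below it in KO 2 (−0.01 and −0.43), while Tjp1 and Jam3 are highest in KO 2 (0.93 and 0.72).

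Markers of other cells moved between the same groups. Of 19 other genes listed as shared endothelial, 5 rose and 14 did not pass. Among the 5 were Emcn (endomucin, 1.00, limma adjusted p = 0.0151), Ets1 (0.49, 0.0266), Ecscr (0.43, 0.0308) and Sox18 (0.84, 0.0388). Of the 19 values, 16 were positive and 3 negative, down to −0.18. The median fold change of the 19 genes was 0.30. The sum of their linear values was 6472 to 7791 in livers labelled knockout and 5641 to 6465 in heterozygous livers. Of 14 sinusoidal genes 8 fell, led by Mrc1, Gpr182, Lyve1 and Stab2, and 6 did not pass. Their values were not uniform: 11 were negative and 3 positive, up to 0.51. The 14 genes summed to 2475 to 3174 in livers labelled knockout and 4675 to 5309 in heterozygous livers. Mesenchymal genes, of which Pdgfra (1.16) and Pdgfrb (0.56) were the 2 of 8 that rose, summed to 6436 to 7546 in livers labelled knockout and 4184 to 5016 in heterozygous livers. No hepatoblast gene of 10 passed by limma, while 5 were higher and 0 lower at an unadjusted p under 0.05. The median log2 fold change of the 10 was 0.36, with 9 positive and 1 negative. Their sum was 27146 to 29520 in livers labelled knockout and 26440 to 26738 in heterozygous livers. Alb and Afp, with group means of 13.35 to 13.46, make up most of this sum, so it says little about the other genes. As Alb and Afp had little room to differ between arrays, the sum does not measure the content of liver cells either. Megakaryocyte and platelet genes summed to 4644 to 9261 in livers labelled knockout and 10280 to 13274 in heterozygous livers. Leukocyte genes summed to 969 to 1745 in livers labelled knockout and 2752 to 3784 in heterozygous livers. All of these markers had a signal value, and the part of each cell type in the junction genes was not tested.

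Each junction gene was also read relative to the median of the 19 shared endothelial genes in the same array. That median was 8.04, 7.63 and 8.16 in livers labelled knockout and 7.61, 7.60 and 7.52 in heterozygous livers. It differed by 0.37, so a gene with the same value in all arrays would read about that much lower on the relative scale. The relative difference was 0.40 for Tjp1, 0.26 for Pecam1, 0.21 for Jam3, 0.17 for Cdh5 and 0.13 for Ocln. It rounded to 0 for Cldn5, and was −0.16 for Jam2, −0.25 for Esam, −0.34 for Icam2 and −0.59 for F11r. On this scale the groups stayed apart for Tjp1 and Pecam1 (higher). For Icam2 and F11r (lower) they were apart only after the subtraction, and overlapped before it. The groups overlapped for Jam3, Cdh5 and the other genes. Before the subtraction, 13.0% of all genes did not overlap with labelled knockout higher and 14.3% with it lower. These shares were not computed on the relative scale, where the raised baseline moves unchanged genes down. Jam3 read −0.74, 0.02 and −0.62 in livers labelled knockout and −0.86, −0.56 and −0.54 in heterozygous livers. Tjp1 read 1.82, 2.57 and 1.91 in livers labelled knockout (SD 0.41), against at most 1.79 in heterozygous livers. Both were highest in labelled knockout replicate 2, where the endothelial median was lowest of that group (7.63). These values restate the differences above against another baseline and were not tested. Tjp1, Jam3, Ocln and F11r also come from cells outside the endothelium, and so do Pecam1, Icam2 and Esam, which platelets or leukocytes make.

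Other genes of cell junctions came from 5 lists with 73 measured genes, of which 11 rose, 1 fell and 61 did not pass, with a median log2 fold change of 0.15. With a sex term none of the genes called in these lists passed (adjusted p = 0.132 to 0.374). In adherens junctions 4 of 17 rose: N-cadherin Cdh2 (0.57, SE 0.10, limma adjusted p = 0.0220), the actin linker afadin Afdn (0.53, SE 0.12, adjusted p = 0.0431), the angiomotin family member Amotl1 (0.53, SE 0.08, adjusted p = 0.0170) and the scaffold Magi1 (0.47, SE 0.10, adjusted p = 0.0361). Cdh2 read 11.43, 11.45 and 11.46 in livers labelled knockout and 10.97, 10.94 and 10.73 in heterozygous livers, without overlap. N-cadherin is made by endothelium and also by liver epithelium and mesenchyme. The VE-cadherin phosphatase gene Ptprb (−0.10, adjusted p = 0.836) and the epithelial cadherin Cdh1 (−0.01, adjusted p = 0.981) did not pass. The catenin genes Ctnnb1 (0.38, adjusted p = 0.0842), Jup (0.28, 0.138), Ctnnd1 (0.23, 0.201) and Ctnna1 (0.23, 0.223) did not pass either.

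Of 24 other tight junction genes, 2 rose, the polarity scaffold Pard3 (0.42, SE 0.09, limma adjusted p = 0.0401) and the claudin of embryonic epithelia Cldn6 (0.69, SE 0.17, adjusted p = 0.0491). The multi-PDZ proteins Mpdz (0.61, adjusted p = 0.0501) and Patj (0.47, adjusted p = 0.111) came next and did not pass. The list's median was 0.13, and its values ran from −0.40 to 0.69. Ocln at 0.50 and Cldn5 at 0.37, neither of which passed, lay inside that range. Among 7 connexin genes of gap junctions, the channels between neighbouring cells, Gja1 (connexin 43) rose 2.20-fold and read 9.52, 9.59 and 9.66 in livers labelled knockout, against 8.43, 8.56 and 8.36 in heterozygous livers. Gja4 (connexin 37, known from arterial endothelium) rose 1.63-fold, and Gja5, another arterial connexin gene, did not pass (0.10, adjusted p = 0.713). Adjusted p-values were 0.00591 for Gja1 and 0.0178 for Gja4 by limma. No connexin gene fell, also at an unadjusted p under 0.05.

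Genes that signal to junctions gave 1 rise and 1 fall among 15. Arhgap29, a RhoA-inactivating protein that acts with Rasip1 in vessel formation, rose by 0.58 (SE 0.09, limma adjusted p = 0.0151). Rap1b, a small GTPase that strengthens VE-cadherin contacts and is abundant in platelets, fell by 0.45 (SE 0.10, adjusted p = 0.0366). It read 11.59, 11.40 and 11.37 in livers labelled knockout and 11.96, 11.88 and 11.88 in heterozygous livers. The small GTPase gene Rhob (0.46, adjusted p = 0.0574) and the Rap activator gene Rapgef1 (−0.31, adjusted p = 0.0947) did not pass. Of 10 genes of leukocyte adhesion and the endothelial surface, Pvr, a nectin-like receptor (0.66, adjusted p = 0.0312), and Mcam, the border protein CD146 (0.46, adjusted p = 0.0351), rose. Vcam1 (0.33, adjusted p = 0.124) and P-selectin Selp (−0.59, adjusted p = 0.146) did not pass.

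**Figure D4:**
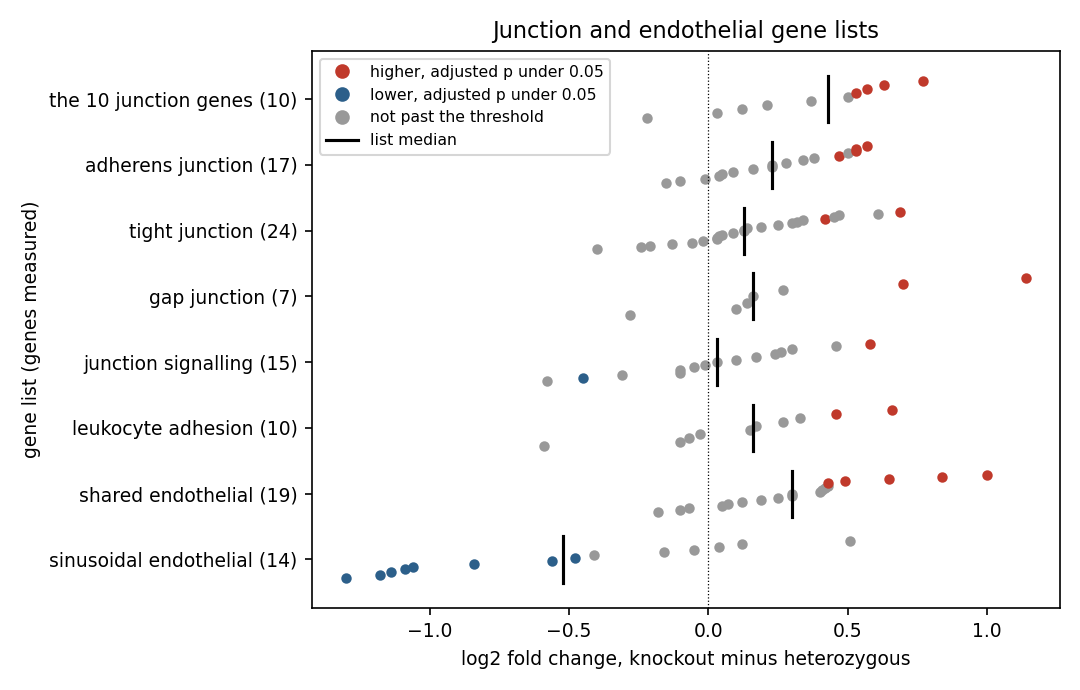
Log2 fold change (horizontal axis, arrays labelled knockout minus heterozygous arrays) of every measured gene in each list (vertical axis, number of genes in brackets). Each dot is a gene, red and blue mark an adjusted p under 0.05, and the black line is the list's median. The median is 0.43 for the 10 junction genes, 0.23 for adherens junction genes, 0.13 for other tight junction genes and −0.52 for sinusoidal genes.

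Among the 160 measured genes of all lists, the 3 most like Cdh5 over the 6 arrays were Pvr (Pearson r = 0.982), the endothelial transcription factor gene Sox18 (0.981) and Gja4 (0.978). Those most like Ocln were Eng, the endothelial co-receptor endoglin (0.975), the tricellular junction protein gene Lsr (0.941) and the collagen gene Col3a1 (0.939). These values rest on 6 arrays in 2 groups and describe likeness of pattern alone.

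The calls on the 4 genes that rose depended on which arrays entered the fit. Their groups did not overlap, so leaving out an array could not turn their direction. Without labelled knockout replicate 3 or heterozygous replicate 3 none of the 4 passed, and their fold changes in those fits were between 0.48 and 0.76. Against heterozygous replicate 2 alone, the one female control, the fold changes were 0.46 to 0.66, and the adjusted p-values with a sex term were 0.169 to 0.327. Each of these fits has fewer arrays or fewer degrees of freedom.

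**Figure D5:**
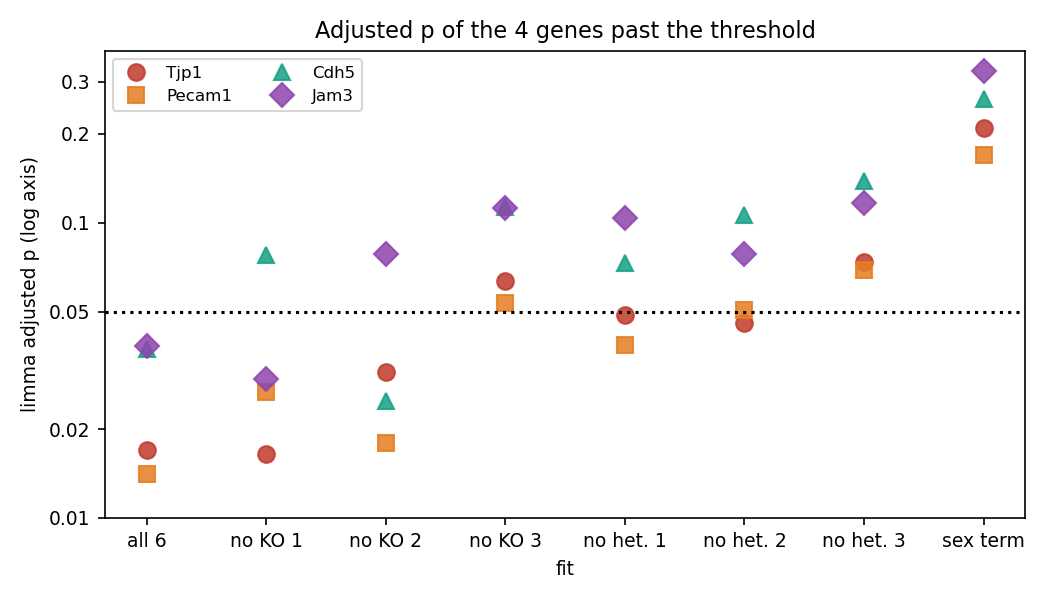
Adjusted p from limma (vertical axis, log scale) of Tjp1, Pecam1, Cdh5 and Jam3 in the fit of all 6 arrays, in the 6 fits that leave out 1 array labelled knockout (KO) or 1 heterozygous array (het.), and with a sex term. The dotted line is the threshold of 0.05: all 4 genes lie below it with all arrays, and all lie above it without KO 3, without het. 3 and with the sex term (0.169 to 0.327).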

How the data were processed

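RNA of whole fetal livers was hybridised to 6 Affymetrix arrays, 3 per group. The deposited values are on the log2 scale and were made by the authors with RMA (background subtraction, quantile normalisation and summary per feature), per the submitters' processing notes. No source used here names the chip definition or the build. Sorted values were identical in all 6 arrays (2.55 to 13.9), so a shift shared by most genes is hidden. Of 24479 features 23281 were named through the platform annotation and a RefSeq gene table, and of 2 features with the same name the brighter was kept, which left 23279 genes.

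Groups were compared by lmFit and eBayes of limma 3.58.1 under R 4.3.3 (labelled knockout minus heterozygous, no covariate, no filter on dim features), with Benjamini-Hochberg adjustment over all genes and a threshold of 0.05. The script was tested on simulated data. With 3 arrays a group, an exact two-sided permutation p is at least 0.1, so each gene's test is this fit. Each p-value sets the difference between groups against the spread between arrays within a group, which limma moderates with the variances of all genes. The number of arrays limits the precision. Columns without a sample numbered 0.

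The genes and the 14 lists (169 genes, 160 measured) were chosen with earlier results of these data known. The named genes are the 10 junction genes, up to 4 per list with the smallest p, every passing gene of the 5 junction lists, Gata4, Stab2 and the 3 genes most like Cdh5 and Ocln. Alb, Afp, Ptprb, Cdh1, the catenins and Gja5 were added for their known role after their values were seen. Erythroid, mesothelial and heart lists are in the closing section. List sums add linear values, 2 to the power of the deposited value. Alternatives were other variance moderation, normalisation, filters, array weights, a replicate block, a sex term, other thresholds and leaving out each array.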

Additional observations from a re-analysis of the deposited data

How the results depend on the processing

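Of the 18 alternatives, 9 changed no call among the 10 junction genes other than by leaving out Jam2 with the dimmest 50% of genes: variance trend, robust variance, new quantile normalisation, median centring, both filters on dim genes, averaged features, array weights and an adjusted p of 0.1. Several of these could change little. Sorted values were already identical between arrays before normalisation or centring, and each junction gene had 1 feature to average. The looser threshold could only add calls. The count of junction genes called higher, 4 as reported, was 2 with a fold change of at least 1.5 required and 0 with a sex term, and 0 to 3 without 1 array. The count called lower was 0 in every alternative. Over all genes, 836 were called higher and 644 lower as reported. These counts were 405 and 281 with the replicate block, 3 and 0 with a sex term, 1430 and 1270 at an adjusted p of 0.1, and 532 and 394 with the fold change required. Without 1 array they were 25 to 785 higher and 16 to 610 lower. Icam2 turned to −0.18 without labelled knockout replicate 3 and to −0.0007 without heterozygous replicate 3, and its fits without 1 array ran from −0.18 to 0.26. With the replicate block Cdh5 was lost (adjusted p = 0.0661) and Tjp1, Pecam1 and Jam3 held. The deviations of same-numbered arrays correlated at −0.052, −0.011 and −0.077. The labels state no pairing of same-numbered arrays, and these values cannot settle whether there was one. Signal over background was not at hand, so dim features may be background.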

Other observations

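Heart muscle genes were high in labelled knockout replicate 3 and heterozygous replicate 2, with list medians of −1.04, −1.48 and 1.17 in livers labelled knockout and −0.05, 1.43 and −1.35 in heterozygous livers (log2, from the heterozygous mean). No gene of 5 passed, also at an unadjusted p under 0.05. Erythroid genes fell in 2 of 6 cases, Epor (−0.83, limma adjusted p = 0.0107) and Klf1 (−0.80, adjusted p = 0.0256). Mesothelial genes rose in 2 of 8, Bnc1 (0.79, adjusted p = 0.0113) and Krt19 (0.52, adjusted p = 0.0387).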
